A study of Mus musculus with 24 samples.

Results

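The CpGs described here lie between genes and away from promoters. They are the autosomal cytosines whose position is in no gene of GENCODE M21 (GRCm38) and more than 1000 bp from the start site of every annotated transcript. There were 163287 such CpGs among 672847 autosomal ones (24.3%) and 694379 in the whole table, counted on each strand separately. By distance to the nearest start site, 56250 lay at 1 to 10 kb, 74585 at 10 to 50 kb and 32452 at over 50 kb. The position of a CpG alone decided whether it was included, so its methylation was free to be tested.

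The study asked whether life in an enriched environment changes DNA methylation in the dentate gyrus, a part of the hippocampus, of aging mice. Reduced representation bisulfite sequencing (RRBS) was used, which cuts DNA at CCGG, sequences the short fragments after bisulfite treatment and so covers mainly CpG-rich DNA. All mice were female C57BL/6JRj with no engineered allele, and each library came from 1 animal. The groups were 8 young STD mice (3 months old, standard cages), 8 aged STD mice (17 months old, standard cages) and 8 aged ENR mice (17 months old, of which the last 3 months were spent in environmental enrichment). The dissected tissue holds neurons, glia and other cells together, so a change in a cell type and a change in the share of that cell type cannot be told apart. Percentages carry no read numbers, so the depth behind a value is unknown. A mouse was covered at between 68832 and 146360 of the 163287 CpGs (median 102780), and 2740 of them were covered in each of the 24 mice.

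In mammalian DNA most CpGs carry a methyl group, and long stretches between genes are methylated by default, transposable elements in particular. Exceptions are CpG islands, whose dense CpGs stay free of methylation, and distal regulatory elements such as enhancers, where binding of transcription factors goes along with reduced methylation. Methylated cytosines tend to mutate, so that methylated DNA loses CpGs over evolution and CpG-rich stretches stand out in it.

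The sequences of a few regions far from genes show the range of levels that was measured. A region is a run of at least 5 measured cytosines in which neighbours lie at most 100 bp apart, and those shown were at over 50 kb from any start site, with a value in every mouse and among the 3 with the most cytosines in their class of level. Each is given on the plus strand of GRCm38, 5′ to 3′, in lower case with the measured CpGs in capitals, and the longer ones are given by their first 300 bases. The first 2 were almost free of methylation (chr4:9027879-9028178 near Rps18-ps2 and chr6:51173794-51174023 near Mir148a).
Rps18-ps2 region: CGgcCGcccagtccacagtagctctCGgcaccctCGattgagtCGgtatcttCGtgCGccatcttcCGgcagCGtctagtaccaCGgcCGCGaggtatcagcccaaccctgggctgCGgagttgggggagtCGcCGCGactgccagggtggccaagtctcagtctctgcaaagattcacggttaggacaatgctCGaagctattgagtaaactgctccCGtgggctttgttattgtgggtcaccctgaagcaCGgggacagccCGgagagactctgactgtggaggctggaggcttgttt
Mir148a region: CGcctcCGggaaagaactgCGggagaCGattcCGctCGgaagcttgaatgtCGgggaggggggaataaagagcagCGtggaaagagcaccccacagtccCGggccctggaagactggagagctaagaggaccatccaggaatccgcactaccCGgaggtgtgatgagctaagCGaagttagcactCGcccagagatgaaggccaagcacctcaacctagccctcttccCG

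The next 2 were almost fully methylated (chr10:98090271-98090570 near Gm10754 and chr14:15533070-15533369 near Gm47779), and the last was intermediate (chr4:127642238-127642479 near A630031M04Rik). In the Gm10754 region 87.0% of the measured cytosines were soft-masked, that is, marked as repeats or low-complexity sequence in the reference. Of the 271 overlapping 30-base stretches in the sequence shown, 176 (64.9%) occurred more than once in the genome, with up to 207 copies. In the Gm47779 region the share was 24.7%, with up to 196 copies. The 2 unmethylated regions and the intermediate one had no soft-masked cytosine, and none of their stretches occurred more than once.
Gm10754 region: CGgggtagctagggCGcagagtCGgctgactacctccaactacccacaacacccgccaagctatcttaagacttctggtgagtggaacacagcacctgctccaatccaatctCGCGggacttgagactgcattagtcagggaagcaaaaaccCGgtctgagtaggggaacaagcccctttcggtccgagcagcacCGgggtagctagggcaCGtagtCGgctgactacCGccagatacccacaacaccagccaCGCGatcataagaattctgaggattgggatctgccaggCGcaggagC
Gm47779 region: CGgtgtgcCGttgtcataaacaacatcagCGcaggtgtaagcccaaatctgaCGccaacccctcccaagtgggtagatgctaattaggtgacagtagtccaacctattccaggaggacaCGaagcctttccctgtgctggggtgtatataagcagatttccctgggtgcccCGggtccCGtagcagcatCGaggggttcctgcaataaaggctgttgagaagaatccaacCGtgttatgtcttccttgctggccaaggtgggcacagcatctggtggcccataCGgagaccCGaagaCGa
A630031M04Rik region: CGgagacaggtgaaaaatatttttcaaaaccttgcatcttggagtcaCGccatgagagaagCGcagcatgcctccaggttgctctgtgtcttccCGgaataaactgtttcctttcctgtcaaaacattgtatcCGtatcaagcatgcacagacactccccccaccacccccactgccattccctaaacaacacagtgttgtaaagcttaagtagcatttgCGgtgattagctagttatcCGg

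Single CpGs named below are shown with 20 bases on either side and the measured CpG in capitals, again on the plus strand. They are the CpG near Gm6993 with the smallest adjusted p for aging (chr12:31237733-31237774), the one near the phosphatase gene Dusp6 (chr10:99251091-99251132), the one with the smallest adjusted p for ENR near A530016L24Rik (chr12:112479123-112479164), a called CpG near Gm6631 in repeated DNA (chr3:70381293-70381334), and those with the largest differences among the CpGs measured in every mouse, near Gm43606 for aging (chr5:51868353-51868394) and near Gm11736 for ENR (chr11:113754434-113754475).
Gm6993 CpG: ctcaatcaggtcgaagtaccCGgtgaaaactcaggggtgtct
Dusp6 CpG: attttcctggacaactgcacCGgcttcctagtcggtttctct
A530016L24Rik CpG: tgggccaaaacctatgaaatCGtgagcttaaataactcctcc
Gm6631 CpG: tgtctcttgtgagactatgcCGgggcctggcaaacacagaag
Gm43606 CpG: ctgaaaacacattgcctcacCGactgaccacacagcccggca
Gm11736 CpG: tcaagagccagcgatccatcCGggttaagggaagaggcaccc

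Intergenic CpGs were mostly methylated, and the more so the farther they lay from a start site. Averaged over mice and CpGs, methylation was 67.2%, against 10.1% in promoters, 56.5% in exons and 60.9% in introns. It was 57.8% at 1 to 10 kb, 69.3% at 10 to 50 kb and 78.6% at over 50 kb. The levels were split between both ends of the scale. Of all intergenic CpGs, 14.5% were methylated at under 10% and 43.6% at over 90%. The share under 10% was 23.7% at 1 to 10 kb, 11.6% at 10 to 50 kb and 5.3% at over 50 kb, and the share over 90% was 34.6%, 45% and 56.1% in the same order.

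**Figure D1:**
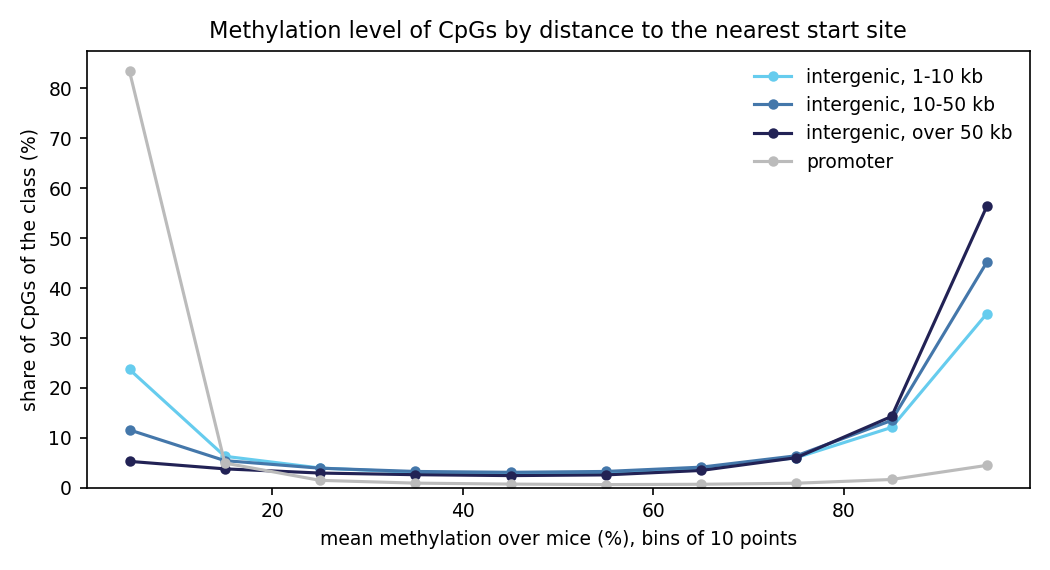
Share of CpGs (y axis, percent of the class) by mean methylation over mice (x axis, percent, in bins of 10 points) for the 3 distance classes of intergenic CpGs and for promoters. The peak under 10% is high for promoters and falls with distance among intergenic CpGs, from 23.7% to 5.3%, while the peak from 90% upward rises from 34.9% to 56.4%.

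The order of the distance classes was the same in every mouse. Over the CpGs that every mouse covered (980, 1230 and 530 in the 3 classes), CpGs at over 50 kb were more methylated than those at 1 to 10 kb by 21.7 ± 0.89 points (SD, n = 24), with a smallest gap of 19.9 and a largest of 22.8 points. CpGs at 10 to 50 kb exceeded those at 1 to 10 kb by 11.8 points on average, and those at over 50 kb exceeded those at 10 to 50 kb by 9.99 points. Intergenic CpGs as a whole exceeded introns by 7.45, exons by 11.8 and promoters by 54.6 points, in 24 of 24 mice each. A two-sided sign-flip permutation test over mice gave p = 1e-05 for each of these gaps, the smallest that 100000 permutations can give, and the adjusted p over 9 such gaps was 1e-05 as well (Benjamini-Hochberg). In finer steps, mean methylation rose from 46.5% at 1 to 2 kb (8927 CpGs) to 62.6% at 5 to 10 kb, 71.2% at 20 to 50 kb and 85.2% at 200 to 500 kb (3023 CpGs). At over 500 kb there were 50 CpGs. The share of soft-masked CpGs rose over the same steps, from 19.1% at 1 to 2 kb to 60.2% at 200 to 500 kb.

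**Figure D2:**
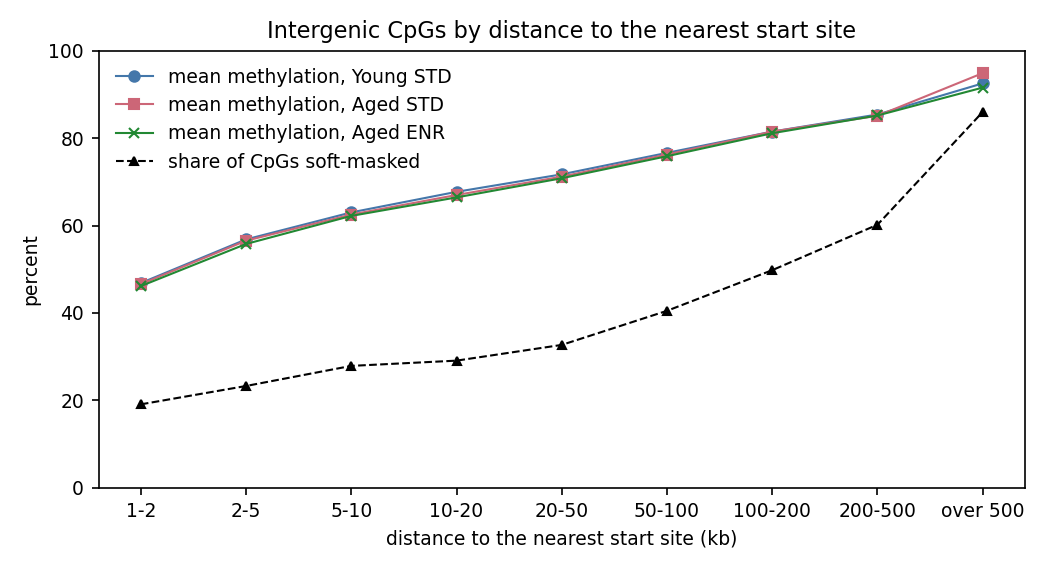
Mean methylation in each group (coloured lines, percent) and the share of soft-masked CpGs (dashed line, percent) by distance to the nearest start site (x axis, kb). Both rise with distance, and the lines of the 3 groups run close together, farthest apart in the last step, which holds 50 CpGs.

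The gradient with distance was present inside and outside repeats. Soft-masked intergenic CpGs (51803) were methylated at 87.9% and the others (111484) at 57.6%. Over shared CpGs this gap was 30.7 ± 0.931 points (SD, n = 24 mice) and present in every mouse (two-sided sign-flip permutation test, p = 1e-05, the smallest possible). Without soft-masked CpGs, the mean still rose from 49.1% at 1 to 10 kb to 60.8% at 10 to 50 kb and 68.4% at over 50 kb. Among soft-masked CpGs it rose from 84.0% through 88.3% to 91.0%.

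Dense CpGs were at opposite ends of the scale inside and outside repeats. Density was taken as the number of CpGs in the window from 100 bp before to 100 bp after a cytosine. Soft-masked intergenic CpGs with at least 10 of them (9887) averaged 90.1%, 89.7% and 90.2% in the 3 groups, and those outside soft-masked DNA (14792) were methylated at 19.8%. For sparse CpGs, with under 5, the values were 86.9% and 70.0%. Distance shifted the balance between these kinds of dense CpGs, since 20.3% of them were soft-masked at 1 to 10 kb, where their mean was 27.1%, and 73.1% at over 50 kb, where it was 79.5%. For comparison, dense CpGs of promoters were methylated at 3.61%.

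Regions between genes gave the same picture as single CpGs. Of 39809 regions, 8323 were made up of intergenic CpGs, with a median of 6 cytosines. Among them, 1608 (19.3%) were under 10% methylated, 1288 (15.5%) lay between 25% and 75%, and 3535 (42.5%) were over 90%. At over 50 kb the shares were 6.82%, 13.3% and 57.6% of 1539 regions. Unmethylated regions were CpG-rich and rarely masked (10.7 CpGs in the same window, 3.71% of cytosines soft-masked), methylated ones were often masked (7.90 CpGs, 60.1%), and intermediate ones were CpG-poor and mostly unmasked (6.41 CpGs, 10.3%). The median SD over mice was 22.2 points in intermediate, 5.27 points in unmethylated and 6.74 points in methylated regions, where a mean near 0% or 100% itself limits the SD.

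The named regions illustrate these 3 states. The Rps18-ps2 region (27 cytosines, 86621 bp from the start site of a ribosomal protein pseudogene) had a mean of 1.66% over the 24 mice. Its lowest, median and highest values were 0%, 0.781% and 14.3% (young STD), 0%, 0.811% and 7.14% (aged STD), and 0%, 0% and 1.01% (aged ENR). Those ranges overlap, and the high value of 14.3% belonged to 1 young mouse. The Mir148a region (18 cytosines, 95888 bp from a microRNA gene) averaged 3.39%. At the other end, the Gm17777 region (20 cytosines, 85% soft-masked) had a lowest, median and highest value of 81.0%, 99.7% and 100% (young STD), 66.7%, 99.4% and 100% (aged STD), and 87.2%, 99.0% and 100% (aged ENR). The Gm10754 and Gm47779 regions averaged 93.3% and 96.5%. All groups overlapped there too.

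Between these ends, the A630031M04Rik region (10 cytosines, 97137 bp from the start site of a long noncoding RNA gene) had a lowest, median and highest value of 30.2%, 44.0% and 59.7% (young STD), 15.8%, 31.9% and 44.0% (aged STD), and 0%, 29.2% and 66.9% (aged ENR). The aged STD mice averaged 13.6 points below the young STD mice, with overlapping ranges, and the adjusted p was 0.92 (limma, Benjamini-Hochberg over all regions). The Uri1 region (16 cytosines) ran from 0% to 90.2% in young STD mice alone and averaged 67.3%, and the Gm15473 region (12 cytosines) ran from 13.9% to 100% in aged ENR mice and averaged 29.6%. Across all 8 named regions, the adjusted p was between 0.92 and 1 for aging and between 0.967 and 1 for ENR (limma, Benjamini-Hochberg).

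**Figure D3:**
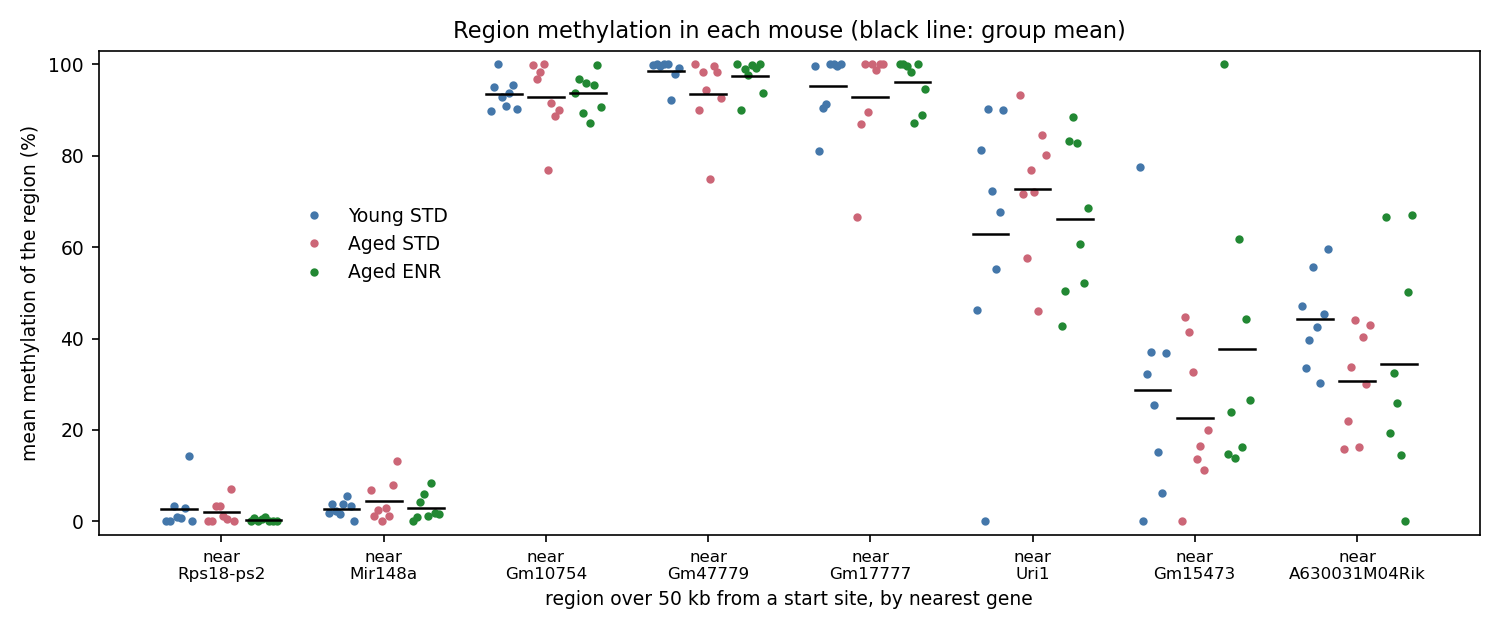
Mean methylation (y axis, percent) of the 8 named regions at over 50 kb from a start site, with 1 point per mouse and the group mean as a black line. The 2 regions on the left stay below 15% and the next 3 above 65% in every mouse. The 3 intermediate ones vary widely between mice, with young STD mice from 30.2% to 59.7% near A630031M04Rik and from 0% to 90.2% near Uri1.

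Short sequence motifs were counted in each state, as a description. In the 300 bases around the centre of each region, the AP-1 motif TGANTCA (bound by Fos and Jun factors) occurred in 9.32% of the intermediate intergenic regions, 10% of those between 10% and 25%, 6.22% of the unmethylated ones and 3.76% of the methylated ones, against 4.77% of all regions. Without regions that held soft-masked cytosines, the values were 9.19%, 6.04% and 7.01% for intermediate, unmethylated and methylated regions. The E-box CAGCTG, read by neurogenic and other basic helix-loop-helix factors, occurred in 20.8% of unmethylated, 19.1% of intermediate and 12.7% of methylated regions (16.5% of all regions). The motif GGNGGCAG, a core of the CTCF site, occurred in 16.1%, 11.8% and 9.82% (15.3% of all). The cAMP response element TGACGTCA occurred in 0.933%, 0.388% and 0.226% (0.912% of all), and TGCGCA, part of the NRF1 site, in 6.22%, 4.11% and 7.27% (7.45% of all). Both strands were searched, and AP-1 and cAMP response element matches do not coincide by their spelling. The regions also differed in CpG content (15.3, 8.95 and 10.8 CpGs per 300 bases in the order unmethylated, intermediate, methylated), and its part in these shares was not tested.

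Levels were also averaged by the kind of gene nearest to the CpG. CpGs nearest to developmental transcription factors (2202 CpGs of 81 genes) averaged 19.6%, with 64.2% of them under 10%, against 67.2% and 14.5% for all intergenic CpGs. They were also denser (9.73 CpGs in the density window, against 5.90) and less often soft-masked (7.31%, against 31.7%), and the part of these properties in the level was not tested. At 1 to 10 kb they averaged 9.37% (57.8% for all intergenic CpGs at this distance), at 10 to 50 kb 42.5% (69.3%) and at over 50 kb 69.2% (78.6%). Near Pax3, a paired-box factor of neural crest and muscle, the 110 CpGs averaged 3.03% (young STD), 3.23% (aged STD) and 4.26% (aged ENR). Around Foxa1, a forkhead factor of the endoderm, the means were 4.62%, 5.72% and 7.19% in the same order (93 CpGs). Sox14, a neuronal SOX factor, had 76 such CpGs with means of 7.23%, 8.70% and 8.49%, and the homeobox gene Msx1 had 125 with means of 13.7%, 14.6% and 14.2%. Nkx6-1, a homeobox factor of the ventral neural tube, had 75 with means of 20.3%, 20.1% and 18.5%. Over the whole list the means were 19.36%, 20.01% and 19.40%.

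CpGs nearest to genes of granule neurons and neurogenesis averaged 36.1% (503 CpGs of 26 genes). Hes1, a Notch target that keeps progenitors undifferentiated, had 51 of 52 CpGs under 10%. Neurog2, a proneural factor, averaged 17.2%, 17.8% and 19.1% in the 3 groups, and Bcl11b, a zinc finger factor of mature granule cells, 50.7%, 48.4% and 47.0%. Activity-induced genes averaged 30.2% (468 CpGs of 24 genes) with a wide range. Egr3 averaged 5.91%, 4.75% and 2.16% in the 3 groups and Fos 6.889%, 5.730% and 6.501%, both immediate early transcription factors. Nptx2, a secreted synaptic pentraxin, averaged 68.1%, 67.4% and 71.2%, with no CpG under 10%. Imprinted genes averaged 51.3% (155 CpGs of 17 genes), among them Dlk1 with 30.5% and Slc38a4 with 91.9%.

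Olfactory and vomeronasal receptor genes, which form large clusters silent in the brain, stood at the other end. Their 3333 nearest CpGs averaged 86.0%, with similar levels across distance (85.6%, 86.5% and 84.5% in the 3 classes), and 68.9% were soft-masked. The class at over 50 kb held only 39 of these CpGs. Single members departed from it, such as Olfr750 with 2.39% over 25 CpGs. CpGs nearest to synaptic adhesion and receptor genes, listed for the large stretches without genes around them, averaged 75.1% (352 CpGs of 41 genes). They averaged 37.2% at 1 to 10 kb (71 CpGs, 52.1% of them under 10%), below the 57.8% of all intergenic CpGs at this distance, 82.7% at 10 to 50 kb and 86.4% at over 50 kb (154 CpGs). Pcdh8, a protocadherin, had 33 of these 71 CpGs, with a mean of 2.36%, all within 3127 bp of its start site. The position of the 71 CpGs below 57.8% rests on this gene.

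**Figure D4:**
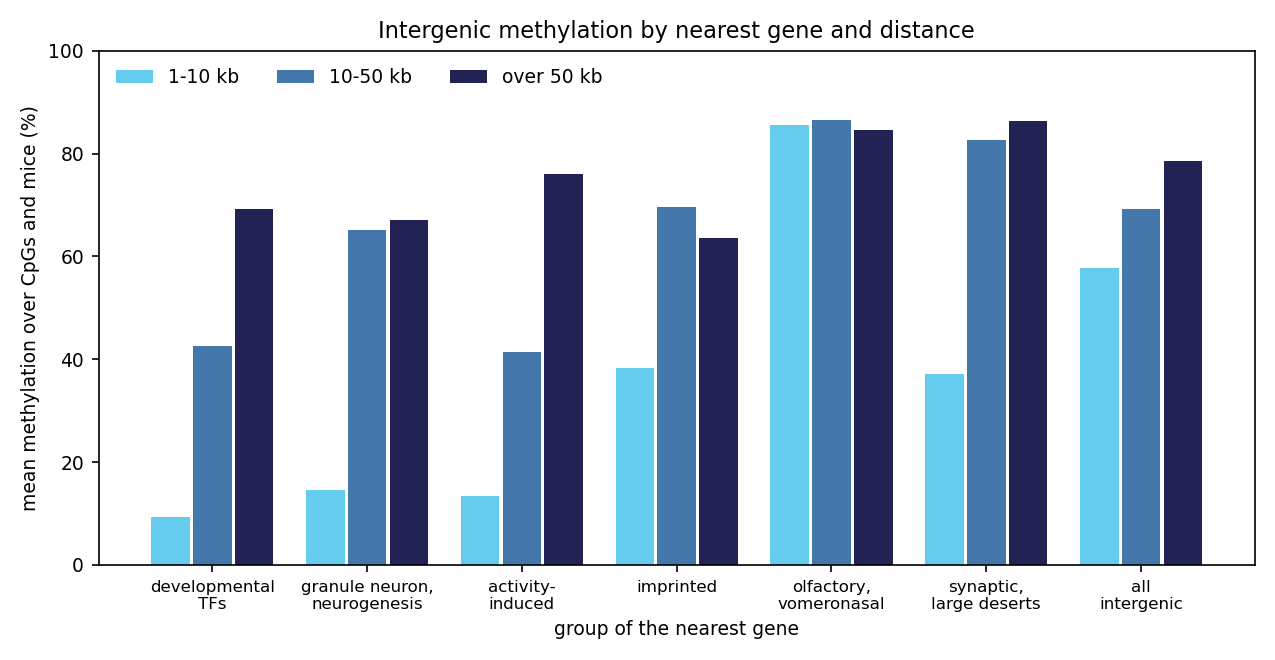
Mean methylation over CpGs and mice (bars, percent, axis from 0) of intergenic CpGs by the group of the nearest gene and the distance to its start site. At 1 to 10 kb the bars of developmental (9.37%), neurogenesis (14.5%), activity-induced (13.4%), synaptic (37.2%) and imprinted genes (38.3%) are below that of all intergenic CpGs (57.8%). Of the 71 CpGs in that synaptic bar, 33 were nearest to Pcdh8 and averaged 2.36%, and its place below 57.8% rests on this gene. The receptor clusters stay near 85% at every distance, with 39 CpGs at over 50 kb.

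The genes with most CpGs in each distance class all averaged below their class. At 1 to 10 kb these were Cbx8, a Polycomb subunit (122 CpGs, 10.1%), the noncoding gene Gm43177 (118 CpGs, 2.92%) and Msx1 (115 CpGs, 10.3%). At 10 to 50 kb they were Tmem33, a membrane protein gene (96 CpGs, 5.74%), Trim27 (93 CpGs, 27.5%) and the noncoding gene Gm26644 (76 CpGs, 3.03%). At over 50 kb they were Mir148a (28.0%), Gm37667 (87 CpGs, 41.3%) and AC102081.1 (82 CpGs, 55.9%). Around Mir148a the group means were 27.6% (young STD), 29.0% (aged STD) and 27.7% (aged ENR). Around Tmem33 they were 3.93%, 5.39% and 7.18%, and around Gm26644 they were 4.63%, 2.38% and 2.30%.

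Mean levels of intergenic CpGs differed by less than 1 point between the groups. Over the 2740 shared CpGs, the lowest, median and highest mouse were at 68.2%, 68.8% and 70.2% (young STD), 63.9%, 68.6% and 69.7% (aged STD), and 67.3%, 68.2% and 68.7% (aged ENR). The groups overlapped, and aged STD replicate 5 stood below all other mice. Over all the intergenic CpGs it covered, its mean was 52.6%, against 64.9% in the next lowest mouse. Aged STD replicate 5 also had the fewest intergenic CpGs with a value (68832), but not few in promoters (221096, more than most mice). Aged ENR replicate 1, with 72632 intergenic CpGs, was at 68.5% over the shared ones. Over shared CpGs, aged STD replicate 5 was also lowest in promoters (12.8%), exons (51.0%) and introns (55.7%). The part of coverage in its level was not tested. Means over the 2740 shared intergenic CpGs were 68.8 ± 0.623% (young STD), 68.2 ± 1.77% (aged STD) and 68.1 ± 0.533% (aged ENR; SD, n = 8 each). The aging difference, aged STD minus young STD, was −0.676 points (p = 0.406, exact two-sided permutation over mice). The ENR difference, aged ENR minus aged STD, was −0.076 points (exact permutation p = 0.959). Averaged over all 163287 intergenic CpGs, of which each mouse covers a different share, the mean difference between group means was −0.464 points for aging and −0.442 points for ENR, without a test. Over the shared CpGs again, aged ENR minus young STD was −0.752 points (exact permutation p = 0.0159, adjusted p = 0.102 by Benjamini-Hochberg over 33 tests of 11 strata and 3 contrasts). Without aged STD replicate 5, the aging difference was −0.0695 points (exact permutation p = 0.811) and the ENR difference −0.683 points (exact permutation p = 0.021, adjusted p = 0.115 by Benjamini-Hochberg over 22 tests). The contrasts share mice and are not independent of each other.

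**Figure D5:**
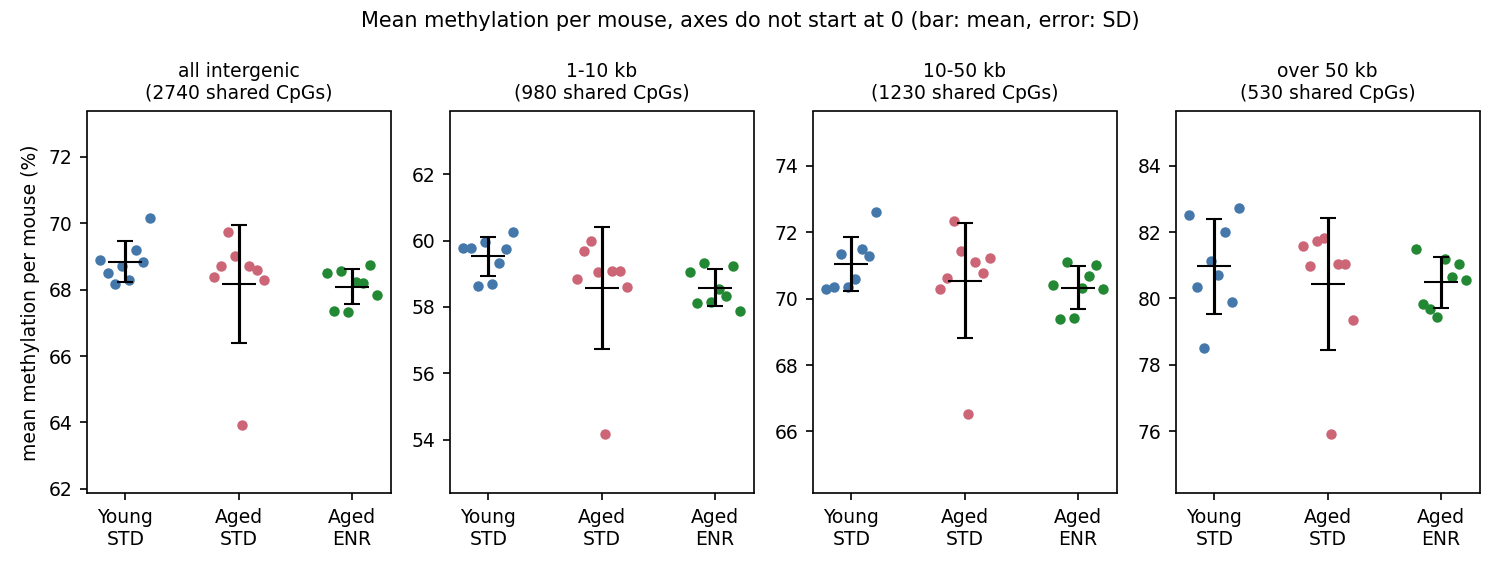
Mean methylation per mouse (y axis, percent, not starting at 0) over the CpGs shared by all 24 mice, for all intergenic CpGs and for each distance class. Points are mice, the bar is the group mean and the error bar the SD. The groups overlap in every panel, and 1 aged STD mouse lies below all others at 63.9% over all intergenic CpGs.

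No stratum passed the threshold after adjustment over these 33 tests (smallest adjusted p = 0.0718), and 7 of the 33 had an unadjusted exact permutation p under 0.05. Apart from aging in CpG-dense CpGs, these were all aged ENR minus young STD and negative (exact permutation p from 0.0073 to 0.0222). Their strata overlap, being all intergenic CpGs and those at 1 to 10 kb, dense, of middle density (5 to 9 CpGs), not soft-masked or within CCGG. CpG-dense intergenic CpGs came closest. They were at 67.6 ± 0.694% (young STD), 66.5 ± 0.246% (aged STD) and 66.7 ± 0.651% (aged ENR; 414 CpGs, SD, n = 8 each). The lowest, median and highest values were 66.3%, 67.7% and 68.3% (young STD) and 66.2%, 66.6% and 66.9% (aged STD), so the ranges overlapped. The aging difference of −1.07 points had an exact permutation p of 0.00218 (adjusted p = 0.0718), and it was −1.03 points without aged STD replicate 5. The 414 CpGs are a small share of the 24679 dense ones, over which the mean aging difference was −0.364 points. The ENR difference was 0.181 points in these CpGs (exact permutation p = 0.467). At over 50 kb, the aging difference was −0.537 points (exact permutation p = 0.579) and the ENR difference 0.0474 points (exact permutation p = 0.969). Both changed sign without aged STD replicate 5, to 0.107 points for aging (exact permutation p = 0.864) and −0.597 points for ENR (exact permutation p = 0.169). The mean difference over all 32452 CpGs at this distance was −0.252 points for aging and −0.345 points for ENR.

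Intergenic CpGs were also compared with all other autosomal CpGs of the same mouse (5496 shared CpGs). The gap between both was 35.2 points (young STD), 35.0 points (aged STD) and 35.3 points (aged ENR). Its aging difference was −0.14 points (p = 0.687, exact two-sided permutation) and its ENR difference 0.226 points (exact permutation p = 0.486). Without aged STD replicate 5, these values were 0.0749 and 0.0113 points.

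At single CpGs, 20335 intergenic CpGs (12.5%) had group means of young and aged STD mice that differed by over 25 points, against 9.16% of the whole table, in which promoters (3.99%) are the most numerous class. In introns the share was 15.1% and in exons 12.8%. Of the intergenic ones, 9275 were gains and 11060 losses with age. Between aged STD and aged ENR mice the number was 18366 (11.2%), against 8.33% of the whole table, 14.1% in introns and 11.7% in exons, with 8755 differences upward and 9611 downward under ENR. No test stands behind these counts. Their share fell with the number of mice, to 6.99% of the 57601 intergenic CpGs covered in 5 or more mice of each group and to 1.42% of the 2740 covered in every mouse for aging, and to 6.37% and 1.13% for ENR. Soft-masked intergenic CpGs exceeded 25 points less often than the others, at 8.15% against 14.5% for aging and 7.5% against 13% for ENR. In dense stretches the shares were 6.06% and 5.04%.

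Neighbouring cytosines followed each other in part. Where an intergenic CpG differed by over 25 points with age and another lay within 10 bp, the neighbour differed by over 25 points in the same direction in 1344 of 5786 cases (23.2%), while 9.96% of all such neighbours exceeded 25 points in either direction. For ENR, the numbers were 1047 of 5066 (20.7%) and 8.74%. Beyond 50 and up to 100 bp, they were 18.4% and 15.1% for aging. Such neighbours are often read by the same sequenced fragment in the same mice, and this share was not separated.

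With the spread between mice taken into account, few CpGs were called. To be called, a CpG needed over 25 points between group means and an adjusted p below 0.05 (limma, Benjamini-Hochberg over the table). For aging, 13 intergenic CpGs were called (0.00796%), against 0.00475% of the whole table, 7 with a gain and 6 with a loss in aged STD mice. For ENR, 9 were called (0.00551%, against 0.00432%), 1 with a gain and 8 with a loss under ENR. Between aged ENR and young STD mice, 13 were called (0.00796%, against 0.00504%). The called CpGs rested on few mice. In 9 of the 13 for aging and 7 of the 9 for ENR, 1 group had a value in 3 mice, as had 37.5% of all intergenic CpGs, and a fit restricted to CpGs with 5 or more mice in each group called no intergenic CpG in any contrast. The counts also moved when single mice were left out, from 8 to 20 for aging and from 3 to 19 for ENR, the highest of both without aged STD replicate 6. The named calls were each made in between 9 and 24 of the 24 fits that left out 1 mouse, and the one near Dusp6 in 15. A fit that left a group with under 3 values could not test the CpG, and it counts here as not called. The call near Gm6993 was made in 18 fits, which are all those that could test it.

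The CpG near Gm6993 (position 31237754 on chromosome 12, 3016 bp from the start site) was at 100% in 3 young STD mice, 0% in 3 aged STD mice and 100% in 4 aged ENR mice, with no value in the other 14. Its adjusted p was 2.74e-17 for aging and 1.37e-17 for ENR (limma, Benjamini-Hochberg). The values did not vary within any group, and with a robust variance prior the adjusted p was 2.12e-05 and 6.42e-06 (limma). The difference did not extend to its surroundings. Its 2 neighbours, 9 and 30 bp away, averaged 100%, 100% and 99.6% in the same mice of the 3 groups. Near Rpl36-ps3, a ribosomal protein pseudogene, a CpG was at 0% in 4 young STD mice, at 70.7% to 100% in 4 aged STD mice and at 0% to 21.3% in 5 aged ENR mice. On the logit scale its adjusted p was 0.0804 for aging and 0.0741 for ENR (limma), so that neither was called there. Its neighbours 26 and 27 bp away averaged 67.6%, 50% and 45.3%. Near the noncoding gene 4930429H19Rik, a CpG was at 100% in 3 young STD, 40% to 45.5% in 3 aged STD and 0% to 11.1% in 4 aged ENR mice, with an adjusted p of 0.553 for aging on the logit scale (limma).

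Near Dusp6, a phosphatase that inactivates ERK and belongs to the activity-induced genes, a CpG at 12120 bp was at 72.7% to 100% in 4 young STD mice and at 0% in 3 aged STD and 3 aged ENR mice. The aging difference was −91.3 points (limma, adjusted p = 0.0314), and it was not called on the logit scale (limma, adjusted p = 0.281). The other 7 cytosines of its run averaged 15.2%, 9.86% and 0.753% in the 3 groups. A CpG near the vomeronasal pseudogene Vmn2r-ps60 was at 100% in 6 young STD mice, at 0% to 34.5% in 4 aged STD and at 36.8% to 100% in 7 aged ENR mice, while its 3 neighbours averaged 85.2%, 80.3% and 74.3%. Near Gm24063, a microRNA gene, 3 young STD mice were at 5.26% to 56.2% and all 6 aged STD and 6 aged ENR mice at 100%. An immunoglobulin pseudogene, Igkv3-12-1, had a called CpG at 59.0% to 70.7% in 3 young STD mice and 100% in 4 aged STD and 3 aged ENR mice, but 12 of the 13 stretches of 30 bases around it occurred more than once in the genome. A CpG near Gm22508 on chromosome 18 was at 40% to 66.7% in 4 young STD mice and at 100% in all 9 aged mice with a value.

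Among the CpGs called for ENR, the one near A530016L24Rik (10305 bp) was at 100% in 4 young and 5 aged STD mice and at 0% in 3 aged ENR mice (limma, adjusted p = 2.32e-23, or 3.6e-08 with the robust variance prior). Its 2 neighbours averaged 68.5%, 90% and 59.3%. The one near A230072I06Rik, at 94552 bp the farthest from a start site among those named as called, was at 100% in 4 young and 3 aged STD mice and at 0% in 3 aged ENR mice (limma, adjusted p = 1.37e-17, or 7.07e-06 with the robust prior), with neighbours at 75%, 96.4% and 78.8%. Near Gm13359, 3 aged ENR mice were at 63.8% to 66.7% and all STD mice with a value at 100%, and the other 14 cytosines of its run averaged 89.1%, 86.7% and 90.9%. Near Gm38155, 5 aged ENR mice were at 43.5% to 78.4% and all STD mice with a value at 100%. Its 3 neighbours averaged 99.2%, 94.7% and 75.9%. The CpG near Gm6631, with 28.0% to 48.8% in 3 aged ENR mice and 100% in 4 aged STD mice, lay in repeated DNA, and each of its 13 stretches of 30 bases had between 338 and 371 copies in the genome. It was not called on the logit scale (limma, adjusted p = 0.476). Near Gm43101, 3 aged STD mice were at 46.4% to 73.7%, and 4 young STD and 4 aged ENR mice were at 0%.

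None of the CpGs with a value in every mouse was called. The largest for aging was near Gm43606 (9599 bp), with a lowest, median and highest value of 50%, 78.5% and 95.8% (young STD), 0%, 9.01% and 75% (aged STD), and 0%, 45.0% and 100% (aged ENR). The groups overlapped. Its aging difference was −53.4 points (limma, unadjusted p = 0.000536, adjusted p = 1) and its ENR difference 19.1 points (adjusted p = 1). Its 3 neighbours averaged 50.4%, 22.1% and 40.2% in the same order. The largest for ENR was near Gm11736, a pseudogene (2247 bp), with values of 38.8%, 71.7% and 99.1% (young STD), 60.7%, 98.7% and 100% (aged STD), and 0%, 34.3% and 55.8% (aged ENR). The aged ENR mice did not overlap with the aged STD mice. The ENR difference was −53.4 points (limma, unadjusted p = 1.87e-05, adjusted p = 0.181), and the neighbour 9 bp away averaged 74.9%, 79.7% and 52.1%. The other named CpGs of this kind, near Gm24120, Snora31, Gm8146 and Gm17619, had differences of 45.2 and −41.1 points for aging and 34.5 and −32.7 points for ENR, with an adjusted p of 1 each (limma).

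No intergenic region was called for aging or for ENR, where a call needed over 10 points and an adjusted p below 0.05 (limma on region means, Benjamini-Hochberg over 39809 regions). Over the whole genome, 0.00251% of regions (1 region) were called for aging and 0% for ENR. At an unadjusted p under 0.05 there were 459 intergenic regions for aging (5.51%, against 4.7% of all regions), 207 up and 252 down with age. For ENR there were 373 (4.48%, against 3.95%), 186 up and 187 down under ENR. The smallest adjusted p of an intergenic region was 0.499 for aging and 0.865 for ENR. Leaving out aged STD replicate 2 gave 1 call in both contrasts, a region of 7 cytosines near Gm42894, which was named after its values were seen. It averaged 14.3% in the 3 remaining aged STD mice with a value, 0% in 5 young STD and 0.575% in 7 aged ENR mice, and the mouse left out was itself at 0%.

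Calls near the gene groups named above were too few to compare the groups. Of the 13 called for aging, 1 was nearest to an activity-induced gene (Dusp6) and 1 to a receptor gene (Vmn2r-ps60), and no other group had a call for aging or ENR. Differences over 25 points with age were found at 7.81% of CpGs near developmental factors (97 higher, 75 lower), 11.3% near neurogenesis genes (32 higher, 25 lower), 8.76% near activity-induced genes (17 higher, 24 lower), 11% near imprinted genes (10 higher, 7 lower), 9.21% near receptor genes (140 higher, 167 lower) and 10.2% near synaptic genes (22 higher, 14 lower), against 12.5% of all intergenic CpGs. With ENR, the shares were 7.08%, 11.5%, 6.62%, 9.68%, 8.58% and 8.81%, against 11.2%. The differences under ENR were up at 59 and down at 97 CpGs near developmental factors, 22 and 36 near neurogenesis genes, 11 and 20 near activity-induced genes, 6 and 9 near imprinted genes, 161 and 125 near receptor genes, and 20 and 11 near synaptic genes. The median difference was 0 points for each group and for all intergenic CpGs, in both contrasts.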

How the data were processed

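RRBS libraries were made from single mice. The authors trimmed reads with Trim Galore, cut a further stretch after detected adapters, mapped them to mm10 with Bismark and, with methylKit 1.5.2, kept cytosines read 10 or more times per mouse, with values in at least 3 mice per group. They deposited the percent of methylated reads per cytosine and mouse, with strands apart and mice not pooled. The submitters' processing notes name Bismark 0.16.1 and Trim Galore 0.4.0, and the published methods name other versions. With a minimum of 10 reads, single percentages are coarse, and the extremes of 0 and 100 are common (77.4% of the values at intergenic CpGs).

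Genes and start sites came from GENCODE M21, and sequence and soft-masking from the RefSeq copy of GRCm38. Of the 163287 CpGs, 7 lay at no CG of the reference. With limma 3.58.1 (R 4.3.3), 1 linear model with a mean for each of the 3 groups was run on the percentages of all 694379 rows. Levels per mouse were compared by exact permutation tests (Python 3.11.15). Regions needed at least 3 cytosines measured in a mouse and 3 mice per group. The scripts were tested on simulated data. Replicates were separate animals, and p-values measure the spread between them, except where no group varied. At the CpGs near Gm6993, A530016L24Rik and A230072I06Rik, the limma p-values rest on the variance prior and the number of mice.

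Named CpGs were those called for aging or ENR (at most 8 each) and the 3 with values in all mice and the largest difference for each. Named regions were the 3 with most cytosines per level class at over 50 kb (1 of them is not reported here), and named genes those with most CpGs per distance class, or per gene list. Intergenic CpGs, gene lists and tests were chosen with earlier results of these data known. Alternatives covered the minimum of mice, thresholds, scale, variance prior, region rules, a replicate block, protein-coding genes only and leaving out mice.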

Additional observations from a re-analysis of the deposited data

Results flagged for a closer look

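Of 83 groups of 4 to 8 mice behind the reported values, 13 held a mouse far from the others of its group. The rule is set to flag about 1 in 20 groups of normally distributed values, and that rate cannot be applied here. Many values lie at an end of the scale, where a single mouse that differs from otherwise equal ones is always flagged. Groups in which all mice are equal can never be flagged. The levels by distance class are also parts of the level over all intergenic CpGs, so these groups are not independent. Aged STD replicate 5 was low in the mean level of all intergenic CpGs (63.9%, nearest other mouse 68.3%), at 1 to 10 kb (54.2%, nearest 58.6%), at 10 to 50 kb (66.5%, nearest 70.3%), at over 50 kb (75.9%, nearest 79.4%) and in the Gm47779 region (75%, nearest 90%). In the other named regions, young STD replicate 7 was high near Rps18-ps2 (14.3%), young STD replicate 6 low near Gm47779 (92.3%) and aged STD replicate 1 low near Gm17777 (66.7%).

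At single CpGs, aged STD replicate 6 was low near Rpl36-ps3 (70.7%, the others at 100%) and aged ENR replicate 5 high there (21.3%, the others at 0%). Aged ENR replicate 8 was high near 4930429H19Rik (11.1%), aged STD replicate 7 high near Vmn2r-ps60 (34.5%) and aged ENR replicate 1 high near Snora31 (100%, nearest 38.8%). The reasons were not tested.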

How the results depend on the processing

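The gap of 21.7 points between CpGs at over 50 kb and at 1 to 10 kb was 17.3 points over regions and 21.7 to 21.8 points when mice were left out. Scoring mice by deviations from row means cannot give this gap. The aging difference and that between aged ENR and young STD mice stayed negative whichever mouse was left out (−0.9 to −0.0695 and −0.848 to −0.565 points). The ENR difference and the aging difference relative to other CpGs changed sign. Over regions in place of CpGs, the ENR difference was 0.0728 points, the aging difference relative to other CpGs 0.0648 points, and the difference between aged ENR and young STD mice −0.691 points (exact permutation p = 0.0834). Leaving out single mice, the ENR difference ran from −0.683 to 0.147 points and the aging difference relative to other CpGs from −0.257 to 0.0749 points, the extremes of −0.683 and 0.0749 without aged STD replicate 5.

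Called CpGs fell to 0 for aging, 0 for ENR and 0 for aged ENR against young STD with at least 5 mice per group, and to 0 in each with all 8. Leaving out single mice, they ran from 8 to 20, 3 to 19 and 5 to 16. For aging there were 8 without young STD replicate 1, young STD replicate 8 or aged ENR replicate 8 and 20 without aged STD replicate 6, and for ENR 3 without young STD replicate 6, 18 without aged ENR replicate 4 and 19 without aged STD replicate 6. For aged ENR against young STD there were 8 without young STD replicate 6 or aged STD replicate 4, 7 without aged STD replicate 2 or 3, and 5 without aged ENR replicate 7. Regions of at least 3 cytosines gave 3 calls for aging (near Gm6993, Kcnv1 and Gm2229) and 2 for ENR (near Gm6993 and 4932438H23Rik). The Gm6993 region holds the called CpG and its 2 neighbours, which were near 100% in each group, so it repeats the call of that CpG. Calls among all regions of at least 3 cytosines were not counted. With at least 5 cytosines, leaving out mice gave 0 to 1 call in both contrasts. The causes were not tested. CpGs over 25 points numbered 4029 with at least 5 mice per group and 39 with all 8 for aging, and 3668 and 31 for ENR.

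Groups share the replicate numbers 1 to 8 but are different animals, and same-numbered mice did not deviate together (mean correlations of 0.00249, −0.000481 and −0.00617 over 2740 CpGs, no pair over 0.1). With the number as a replicate block, 144, 120 and 106 intergenic CpGs were called for aging, ENR and aged ENR against young STD. For aging and ENR, 0 intergenic regions were called with it. Calls over the whole table were not counted with the block, so no share over all CpGs can be set beside these numbers.

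Of the 18 calls of named CpGs, 2 were also made with the block, and 6 were lost on the logit scale (Rpl36-ps3 and 4930429H19Rik in both contrasts, Dusp6 and Gm6631). The robust variance prior ended 1, for ENR near 4930429H19Rik (limma, adjusted p = 0.069). Depth per value is unknown and limits every single CpG.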

Other observations

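Levels of intergenic CpGs varied between chromosomes, from 55.6% on chromosome 11 (9552 CpGs) and 60.5% on chromosome 19 (4589 CpGs) to 73.9% on chromosome 16 (5328 CpGs) and 74.1% on chromosome 3 (10235 CpGs). CpGs upstream of the nearest start site averaged 66.3% (93717 CpGs) and those downstream 68.4% (69570 CpGs). Outside soft-masked DNA, CpGs flanked by a C before and a G after, the site cut for RRBS, averaged 63.1% (53656 CpGs). Those flanked by a C on both sides averaged 43.2% (4566 CpGs), by a G before and a C after 43.8% (4351 CpGs), and by an A before and a G after 57.9% (4485 CpGs).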
